A study of Mus musculus with 7 samples.

Results

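The genes described here encode the machinery that releases synaptic vesicles. They are the protein-coding genes of the deposited table whose symbols belong to the synaptotagmin, synapsin, SNAP-25, syntaxin, syntaxin-binding protein, VAMP, complexin, Rab3, RIM and SV2 families, together with Snap91. They were picked by symbol among protein-coding genes, under a rule set with earlier results of these data known. They number 66 of 54532 genes, or of 22046 protein-coding genes, and 2 further genes with matching symbols were not included. Of the 66 genes, 62 had enough counts to be tested.

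RNA was sequenced from motor cortex of 3 mouse samples labelled WT and 4 labelled cKO (conditional knockout). All of them had received a virus named GA100 in both lateral ventricles on postnatal day 0, and tissue was taken 3 months later, after behavioural tests. The series title places the study in a C9orf72 poly-GA model and names TIA1, an RNA-binding protein of stress granules. The labels give neither the deleted gene nor the driver of the deletion, nor the promoter in the virus. Uninjected mice were not analysed here; both groups carry the virus, and the comparison is of genotypes alone. WT and cKO below name libraries by these labels. Whether every library came from its own mouse is not stated in the labels. P-values thus reflect the spread among the 7 libraries, which may be technical.

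A synaptic vesicle fuses when VAMP proteins on its membrane zip together with syntaxin and SNAP-25 on the plasma membrane. Complexins hold the assembled complex in a primed state, and synaptotagmins bind calcium and trigger fusion. RIM and Rab3 proteins tether vesicles at the active zone, synapsins gather them in reserve, SV2 glycoproteins sit in the vesicle membrane, and AP180 (Snap91) recovers membrane through clathrin.

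Promoter sequence is shown for 4 genes to which the genotype comparison or the spread between libraries returns below: Stx1a and Sv2c, with the lowest and the highest log2 fold change among the genes at an unadjusted p under 0.05, and Rims3 and Sv2b, for which library cKO 3 stood farthest below and above the other cKO libraries, by its gap over the range of the group. They were chosen after the values were seen, among genes with no annotated exon in the stretch shown. Each line gives the 150 bases before the RefSeq start site on build GRCm38.p6, 5′ to 3′ on the gene's strand. Capitals mark a GC box (GGGCGG, or its reverse complement CCGCCC) or a TATA box (TATAAA, or its reverse complement TTTATA); the motifs do not overlap one another here. Rims3 lies at chr4:120854649-120854798 on the plus strand, Sv2c at chr13:96132578-96132727 on the minus strand, Stx1a at chr5:135023332-135023481 on the plus strand and Sv2b at chr7:75309263-75309412 on the minus strand.
Rims3: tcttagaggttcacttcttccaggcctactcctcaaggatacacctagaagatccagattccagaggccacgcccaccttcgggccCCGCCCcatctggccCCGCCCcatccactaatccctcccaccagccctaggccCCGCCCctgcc
Sv2c: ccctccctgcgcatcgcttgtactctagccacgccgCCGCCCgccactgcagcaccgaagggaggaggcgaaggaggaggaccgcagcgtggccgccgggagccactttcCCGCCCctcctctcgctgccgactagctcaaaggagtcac
Stx1a: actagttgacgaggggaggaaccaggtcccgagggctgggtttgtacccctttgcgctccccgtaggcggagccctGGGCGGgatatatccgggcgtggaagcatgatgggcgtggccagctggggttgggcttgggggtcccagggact
Sv2b: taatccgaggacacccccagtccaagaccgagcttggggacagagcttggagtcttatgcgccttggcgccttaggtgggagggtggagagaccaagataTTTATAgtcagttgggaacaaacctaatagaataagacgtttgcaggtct
The Rims3 stretch held 3 GC boxes, Sv2c 2 and Stx1a 1, with no TATA box in any of them. The Sv2b stretch held 1 TATA-box match, 50 bases before the start site, and no GC box. Its GC content was 50.7%, below the 63.3% of Rims3, 66.0% of Stx1a and 69.3% of Sv2c.

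RefSeq promoter windows were matched for 50 of the 66 genes, giving 64 windows of 250 bases before a start site. A GC box on either strand stood in 37 of the 64 windows (57.8%), against 32.7% of 32851 windows of all genes. A TATA box stood in 5 windows (7.81%), against 12.4% of all. The median GC content was 60.2% in the windows of the release genes and 52.4% in all. These are descriptions of letters in a window, with no test, and a match is not a site in use. Other motifs were also searched and are not reported.

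Library totals ran from 15181390 to 16463721 counts, and the 66 genes together held 1.72% to 1.86% of the counts of each library. Tia1, named in the title, stood at 60.7, 95.8 and 69.0 CPM (counts scaled to library depth) in WT replicates 1 to 3 and at 81.4, 80.4, 72.7 and 81.9 in cKO replicates 1 to 4; its log2 fold change was 0.07 ± 0.13 (SE; edgeR quasi-likelihood test, adjusted p = 0.914). The whole-gene count therefore does not separate the labelled genotypes, and it would not show the loss of part of the gene or a loss in few cells. Library cKO 3 stood apart from the rest. Its summed olfactory bulb markers reached 151 CPM, against 3.82 to 6.09 in the other 6 libraries, with Cdhr1 at 103 CPM against at most 2.53. Eomes and Tbx21 of the same list were also highest in cKO 3 (14.6 and 2.23 CPM, against at most 0.247 in the others). Each was at 0 in at least 1 other library. Choroid plexus markers reached 176 CPM in cKO 4 and 17.2 to 25.4 in the others. Summed meningeal fibroblast markers stood at 79.0 CPM in WT 1 and 89.4 in cKO 3, against 34.6 to 51.2 in the other 5 libraries. Mitochondrial genes held 7.54% of the counts in cKO 3 and 5.5% to 6.4% in the other 6 libraries. Counts of Xist, 15217 in WT 1 and 19151 in cKO 1, were 8 or fewer in the other 5 libraries. Summed glutamatergic markers, of which 7 of 8 were lower in cKO, ran from 5646 to 6238 CPM in WT and from 4408 to 5676 in cKO, and 10 of 10 oligodendrocyte markers were higher in cKO (3860.0 to 5898 and 4198 to 8331 CPM summed). Summed GABAergic markers, of which 6 of 9 were higher in cKO, ran from 1347 to 1403 CPM in WT and from 1438 to 1806 in cKO. Summed fast-spiking interneuron markers, of which 4 of 5 were higher, ran from 561 to 591.5 CPM in WT and from 597.9 to 609.1 in cKO. The cKO 3 sum rests in part on Tac1, at 58.51 CPM there against 27.25 to 40.51 in the other 6 libraries. Pvalb of the same list was lowest in cKO 3, at 24.28 CPM against 29.07 to 43.22. All 8 glutamatergic and all 9 GABAergic markers of the cortex were detected in every library. What these marker levels contribute to the results below was not tested.

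Levels between genes are compared in the authors' FPKM (fragments scaled by gene length and library depth), as the mean ± SD over 7 libraries. Snap25, the plasma membrane SNARE of regulated release, was highest at 366 ± 21.9 FPKM, with a range of 339 to 394. The complexins Cplx2 (298 ± 14.0) and Cplx1 (237 ± 9.94) followed. Syt1, the calcium sensor of fast release, stood at 232 ± 23.2 FPKM, the vesicle SNARE Vamp2 at 229 ± 16.1 and the synapsin Syn1 at 209 ± 13.4. From Cplx1 through Syt1 and Vamp2 to Syn1, neighbours overlapped in range, so the order of neighbours is not resolved. Snap25 lay above the range of Cplx2, Cplx2 above that of Cplx1, and Syn1 just above that of Rab3a. In all, 10 genes, Rab3a and Syt11 among them, stood at 100 FPKM or more. A further 29 genes had a mean of 10 to 100 FPKM, 21 of 1 to 10 and 6 under 1. Over the whole order, 57 of 65 neighbouring pairs overlapped in range. Among all protein-coding genes, 7 of the 66 stood within the 100 highest and 16 within the 500 highest.

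**Figure D1:**
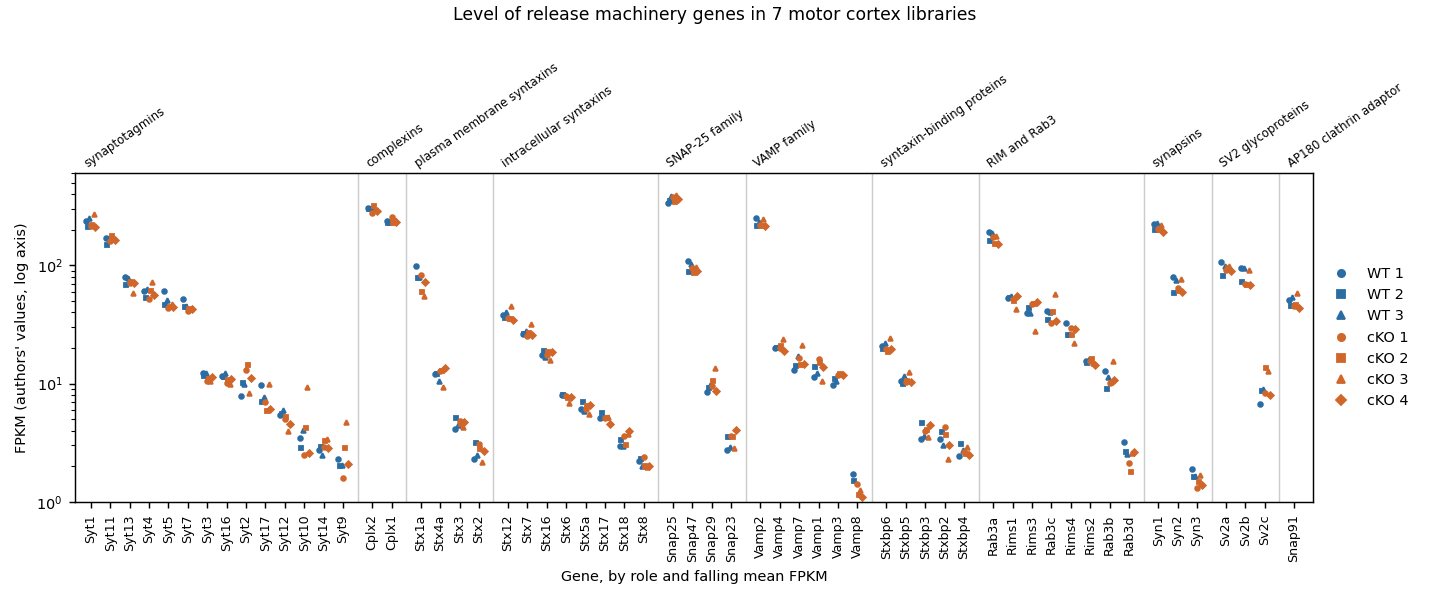
Points show the authors' FPKM (log axis) of 58 release genes with a mean of at least 1 FPKM in each of 7 libraries, grouped by role and ordered by mean; some single values under 1 fall below the axis. Snap25, at 339 to 394 FPKM, is the highest gene, and the libraries of both genotypes overlap at nearly every gene.

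In several families 1 gene held most of the signal per length. Snap25 made up 77.1% of the FPKM of its family (73.9% to 78.2% over the libraries), Vamp2 78.5% of the VAMP family (77.0% to 81.7%) and Syn1 75.2% of the synapsins (73.1% to 76.7%). Other families were shared. Cplx2 held 55.7% and Cplx1 44.3% of the complexins, and Sv2a 51.4% and Sv2b 43.3% of the SV2 genes, whose FPKM ranges overlapped. Among 16 synaptotagmins, Syt1 held 34.2% and Syt11, which lacks calcium binding, 24.6%. Rab3a made up 47.3% of the RIM and Rab3 genes, and the endosomal syntaxin Stx12 35.3% of the intracellular syntaxins. The fast calcium sensor Syt2 stood at 10.7 ± 2.38 FPKM, which is 4.70% of Syt1, and Vamp1 at 13.3 ± 2.01, or 5.87% of Vamp2.

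The genes at the low end were Vamp5, Syt15, Stx19, Stx11, Syt8 and Cplx4, and the last 4 were not tested. Stx19 had 35 counts over all 7 libraries, Stx11 27 and Syt8 3. Cplx4, known from the retina, had 0 counts in every library, which allows up to 0.182 to 0.198 CPM per library (3 counts of the total; counting error only).

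The comparison of genotypes asked whether any release gene differed between cKO and WT in virus-injected cortex. None did after adjustment. Of the 62 genes tested, 0 passed an adjusted p under 0.05 in edgeR's quasi-likelihood test with Benjamini-Hochberg adjustment over 16308 genes, where 0.0% of all genes passed, and their adjusted p-values ran from 0.694 to 0.993. The log2 fold changes of cKO over WT lay between -0.33 (Stx1a) and 0.43 (Syt10), with 25 above and 37 below 0. The value of Syt10, a synaptotagmin named after its values were seen, rests on library cKO 3, at 17.3 CPM against 4.64 to 7.78 in the other 6, and was -0.16 ± 0.22 without it. The median over the 62 genes was -0.02, against 0.0074 over all genes tested. At a mean of at least 10 FPKM it was -0.018 for the release genes, with 24 of 39 below 0. Over all genes at that level it was -0.014, with 2490 of 4598 below 0. In bulk tissue, a change in the number of cells of a type and a change in RNA per cell cannot be told apart.

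At an unadjusted p under 0.05 stood 6 of the 62 genes (9.68%), against 7.14% of all genes tested; 2 were higher in cKO (Vamp3 and Sv2c; 4.22% of all genes were higher) and 4 lower (Stx1a, Syt5, Syt12 and Syt16; 2.91% of all were lower). DESeq2, which gave p-values for 65 of the release genes, also made 0 adjusted calls and put 6 at an unadjusted p under 0.05. Its 6 held Syt2 in place of Vamp3. The CPM of the genotypes did not overlap for 6 genes (9.68%), against 7.38% of all genes. Vamp3 was higher in cKO (1 gene; 3.97% of all), and Stx6, Syt3, Syt7, Syt12 and Syt16 were lower (5 genes; 3.42% of all). Of these, Stx6 and Syt3 are named after their values were seen. Both shares are near the background.

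The intervals bound what the data could hold. The 95% interval of the fold change lay within 1.5-fold in either direction for 53 of the 62 genes (85.5%; 65.5% of all genes). Among the 39 genes with a mean of at least 10 FPKM it was within 1.5-fold for 37 (94.9%), and so it was for 4366 of all 4598 genes at that level. Snap25 was between 0.904 and 1.18 times its WT level, Vamp2 between 0.851 and 1.10 times and Syt1 between 0.843 and 1.16 times.

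**Figure D2:**
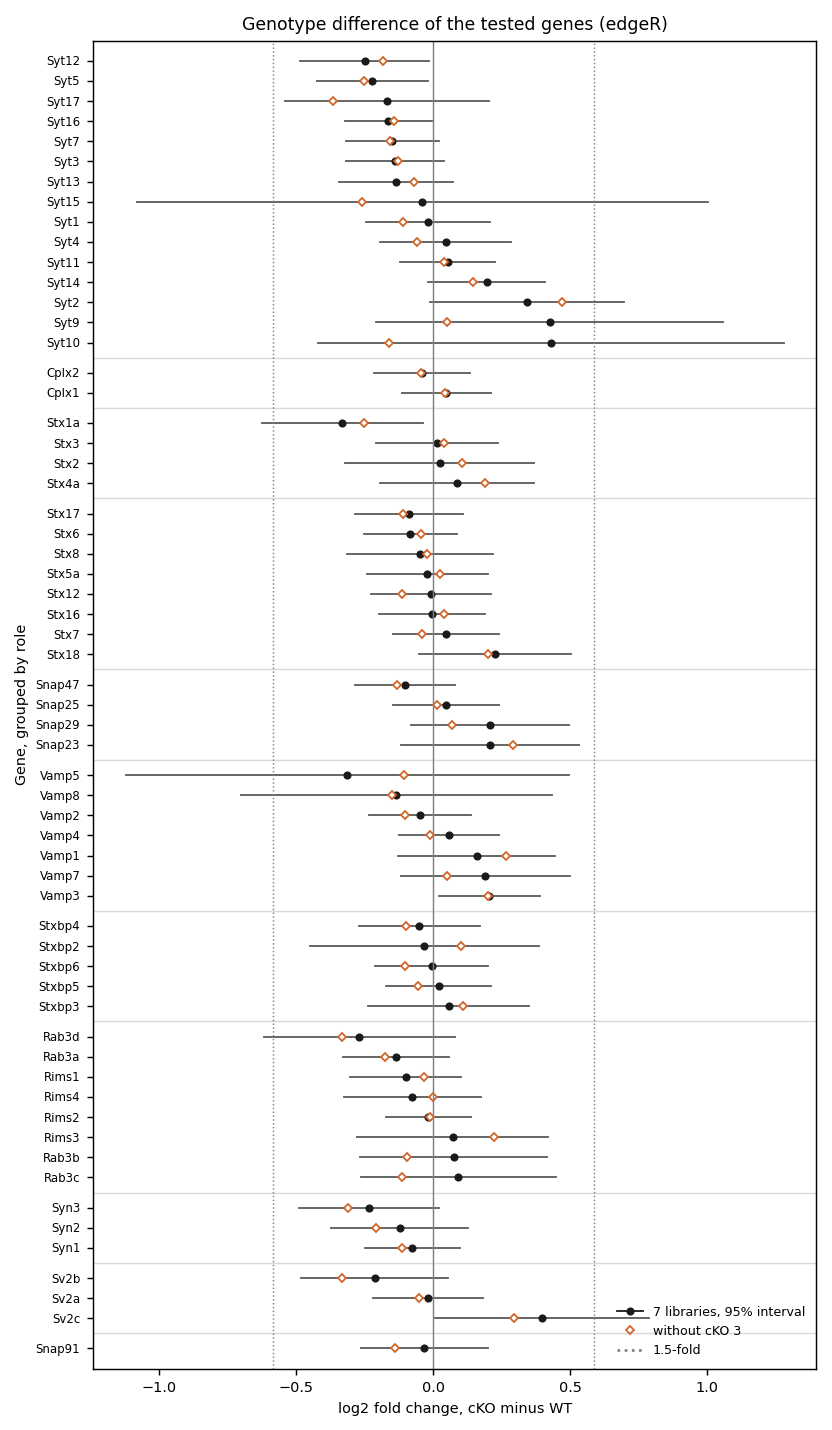
Black points show the log2 fold change of cKO over WT with its 95% interval for 60 tested genes by role, and open diamonds the value without library cKO 3; dotted lines mark 1.5-fold. The intervals of 51 of them lie between the dotted lines, and the diamonds of Syt2, Syt10, Rims3 and Sv2b sit away from their black points.

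Among the SNAREs, Snap25 stood at 2292, 2416 and 2647 CPM in WT and at 2602, 2364, 2668 and 2504 in cKO. The groups overlapped, and the log2 fold change was 0.05 ± 0.09 (SE; edgeR, adjusted p = 0.920). Vamp2 (-0.05 ± 0.09) lay as close to 0.

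Stx1a, a plasma membrane syntaxin of neurons, stood at 264, 208 and 215 CPM in WT and at 225, 161, 147 and 194 in cKO. WT 1 was the highest of all and 3 of 4 cKO libraries lay below every WT library, but cKO 1 lay within the WT range. Its log2 fold change of -0.33 ± 0.13 had an adjusted p of 0.694 (edgeR). Without WT 1 it was -0.22 ± 0.15 and without cKO 2 it was -0.29, both no longer under the unadjusted threshold. Without cKO 3 it was -0.25 ± 0.11 and still under that threshold. Stx1a also stayed under it without WT 2 (-0.41), WT 3 (-0.38), cKO 1 (-0.46) or cKO 4 (-0.37). With WT 1 and cKO 3 both left out it was -0.13 ± 0.11 and above the threshold.

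Vamp3, or cellubrevin, a vesicle SNARE of constitutive and endosomal traffic, had 28.2, 31.7 and 30.4 CPM in WT and 34.5, 35.1, 34.6 and 34.7 in cKO. Every cKO library was above every WT library, and the cKO libraries lay within 1 CPM of each other. The log2 fold change was 0.20 ± 0.08 (adjusted p = 0.694, edgeR). It was 0.20 ± 0.09 without cKO 3 and 0.16 ± 0.09 without WT 1. It was above the unadjusted threshold in DESeq2, with the replicate number as a block, and without WT 1, WT 3, cKO 1, cKO 2 or cKO 4 in turn. Vamp1, the synaptobrevin of many fast-firing neurons, stood at 116, 141 and 125 CPM in WT and at 167, 154, 107 and 141 in cKO, with the lowest value in cKO 3 (log2 fold change 0.16 ± 0.13; 0.06 without cKO 1 and 0.27 without cKO 3). Stx18, a syntaxin of the endoplasmic reticulum, differed by 0.22 ± 0.13 (adjusted p = 0.731, edgeR), and its exons overlap those of 2 genes on the opposite strand.

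Of the complexins, Cplx1 (0.05 ± 0.07) and Cplx2 (-0.04 ± 0.08) gave log2 fold changes near 0. Cplx1 had 516, 508 and 509.8 CPM in WT and 569.6, 506, 528 and 509 in cKO. Its 3 WT libraries lay within 8 CPM of each other, and cKO 1 and cKO 3 were higher.

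The synaptotagmins, of which 15 were tested, held 3 of the 4 lower genes at an unadjusted p under 0.05. Of the 15, 6 had a log2 fold change above 0 and 9 below, and none passed after adjustment. Without WT 1 none was under the unadjusted threshold. Whether the family differs as a set was not tested. Syt5, a calcium-binding member, had 145, 110.1 and 121 CPM in WT and 105.6, 106.2, 113 and 106.5 in cKO (-0.22 ± 0.09, adjusted p = 0.694, edgeR). The cKO values were tightly grouped and overlapped WT only through cKO 3, while WT 1 was the highest; without WT 1 the log2 fold change was -0.11. Syt12, a member without calcium binding, had 29.9, 30.6 and 33.0 CPM in WT and 28.3, 28.9, 22.1 and 25.4 in cKO (-0.25 ± 0.11, adjusted p = 0.694, edgeR). Every cKO library lay below every WT library, by as little as 1 CPM at the border. Of the gene's exonic bases, 17.2% overlap an opposite-strand gene, and no strand marking that would tell their reads apart is described. Syt16 had 105, 105 and 112 CPM in WT and 94.4, 98.8, 90.0 and 99.8 in cKO (-0.16 ± 0.07, adjusted p = 0.696, edgeR), again with no overlap.

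Syt1 (-0.02 ± 0.10) and Syt7 (-0.15 ± 0.08), the sensor of asynchronous release and vesicle replenishment, had adjusted p-values of 0.979 and 0.715 (edgeR). Syt7 stood at 379.5, 324 and 331 CPM in WT and at 302, 316, 312 and 313 in cKO, without overlap, and its log2 fold change was -0.08 ± 0.08 without WT 1. Syt14 differed by 0.19 ± 0.10 (adjusted p = 0.713, edgeR). Syt2 stood at 60.0, 77.8 and 75.7 CPM in WT and at 101, 110.4, 63.0 and 85.8 in cKO, where 3 libraries were above all WT libraries and cKO 3 lay among them (0.34 ± 0.16, adjusted p = 0.700, edgeR); the log2 fold change was 0.22 without cKO 2.

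Of the docking genes, Rab3a had 427, 363 and 420.0 CPM in WT and 390.4, 342, 393 and 343 in cKO (-0.14 ± 0.09, adjusted p = 0.757, edgeR; -0.22 without WT 2). Rims1 differed by -0.10 ± 0.09, and by -0.03 ± 0.07 without cKO 3. Rims3, a short RIM, is named after its values were seen: it had 315, 352 and 317 CPM in WT and 383, 378, 224 and 393 in cKO. The 3 other cKO libraries were above all WT libraries and cKO 3 was below all of them, so the log2 fold change was 0.07 ± 0.16 with cKO 3 and 0.22 ± 0.07 without it.

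All 3 synapsins lay below 0 (Syn1 -0.08 ± 0.08, Syn2 -0.12 ± 0.11, Syn3 -0.23 ± 0.12) and none passed the unadjusted threshold in the main edgeR fit of all 7 libraries. With upper-quartile scaling of the counts, Syn3 was under that threshold (-0.26). With 1 library left out, Syn2 ran from -0.04 (without WT 1) to -0.25 (without WT 2), and Syn1 from -0.04 (without WT 3) to -0.14 (without WT 2). Syn3 shares 14.1% of its exonic bases with an opposite-strand gene. Snap91, at 462, 414 and 491.5 CPM in WT and 421, 422, 535 and 402 in cKO, differed by -0.03 ± 0.11.

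The SV2 genes pointed in different directions. Sv2c, the least abundant of them here, had 64.5, 84.0 and 87.8 CPM in WT and 81.7, 131.5, 123 and 78.6 in cKO (0.40 ± 0.18, adjusted p = 0.696, edgeR). The higher level was carried by cKO 2 and cKO 3, the libraries with the highest summed striatal markers (1753 and 1357 CPM, against 923 to 1203 in the other 5), and the other 2 cKO libraries lay within the WT range. Whether the striatal signal contributes was not tested. Sv2c had a log2 fold change of 0.30 ± 0.16 without cKO 3, 0.27 ± 0.20 without WT 1 and 0.25 without cKO 2. It was 0.44 without WT 2 and 0.18 ± 0.16 with WT 1 and cKO 3 both left out. In each of these fits Sv2c was above the unadjusted threshold. Without WT 3 (0.48), cKO 1 (0.49) or cKO 4 (0.50) it was under that threshold, and it did not pass after adjustment. Sv2b had 788, 609.8 and 796 CPM in WT and 591, 582, 770.4 and 579 in cKO. Here WT 2 was low and cKO 3 high among their groups, and the log2 fold change was -0.21 ± 0.12 (adjusted p = 0.731, edgeR), or -0.34 without WT 2. Sv2a differed by -0.02 ± 0.09.

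**Figure D3:**
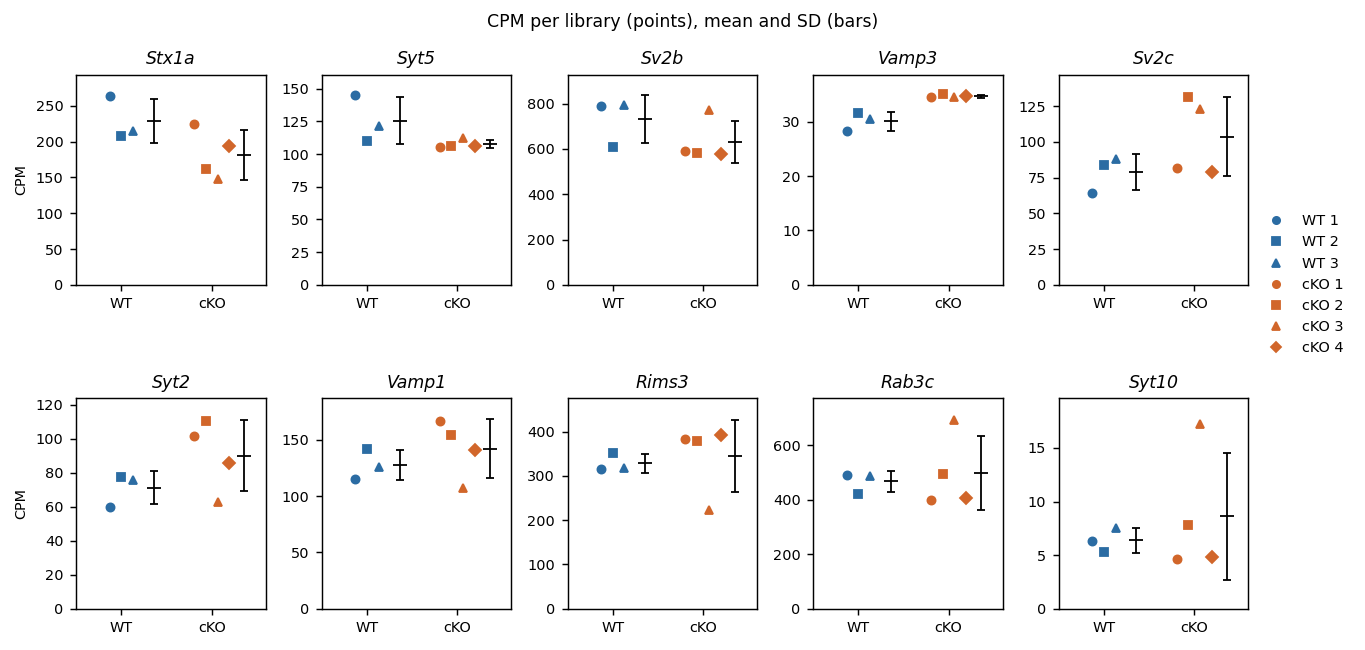
CPM of 10 genes, chosen after their values were seen, with each library as a point and the group mean ± SD beside it; every axis starts at 0. Vamp3 is the only one of the 10 whose groups do not overlap, and cKO 3 is the lowest cKO library for Stx1a, Syt2, Vamp1 and Rims3 and the highest for Syt5, Sv2b, Rab3c and Syt10.

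Library cKO 3 was the highest or lowest of the 7 libraries for 34 of 62 genes (54.8%; 48.9% of all genes), and WT 1 for 26 (41.9%; 37.7% of all). In cKO 3 the median absolute deviation of a release gene from its mean was 0.20 on the log2(CPM + 0.5) scale, against 0.08 to 0.12 in the other libraries; over all genes it was 0.17 and 0.10 to 0.14. For genes at 10 FPKM or more, the highest library exceeded the lowest by a median of 1.28-fold, and by 1.27-fold for all genes at that level. The library therefore differed from the rest across the transcriptome as well as in these genes. Rab3c, which had its highest value there (690.4 CPM against 399 to 493 in the other 6 libraries), had a log2 fold change of 0.09 with cKO 3 and -0.12 without it.

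**Figure D4:**
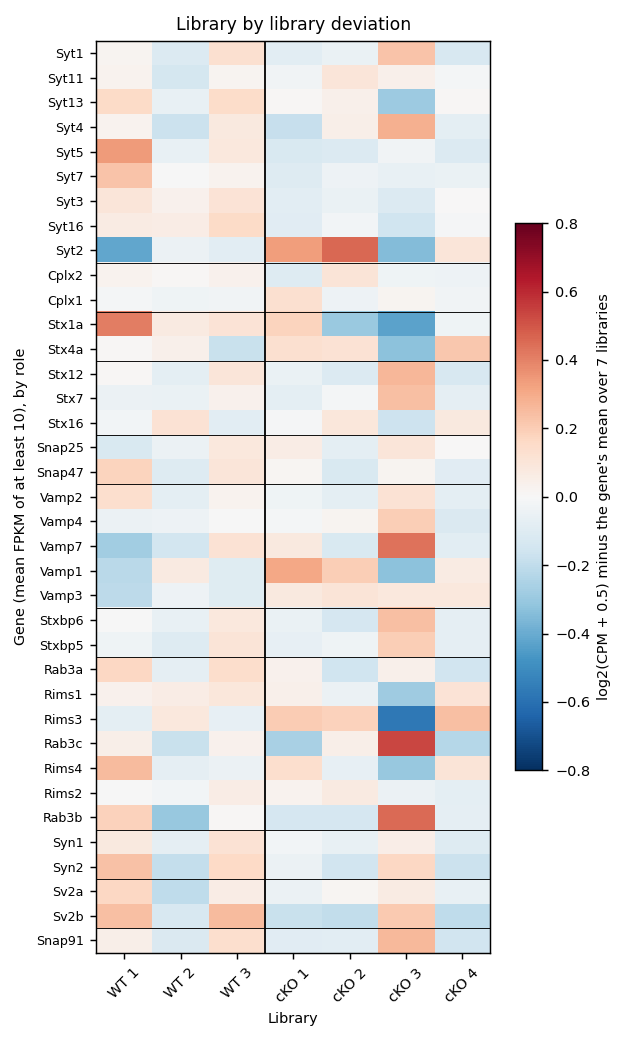
Colour shows the deviation of log2(CPM + 0.5) from the mean of that gene in all 7 libraries, for 37 release genes with a mean of at least 10 FPKM (rows, by role) in each library (columns; the line parts WT from cKO). The strongest colours stand in cKO 3, with Rab3c and Rab3b high and Rims3 low, and in WT 1.

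Without cKO 3, 0 of the 62 genes passed the adjusted threshold (0.0% of 16216 genes did), and 11 (17.7%) had an unadjusted p under 0.05, where 9.55% of all genes did. Syt2 (0.47 ± 0.11), Rims3, Vamp1 (0.27), Vamp3 and Snap23 were higher in cKO, and Sv2b (-0.33 ± 0.09), Syt17, Syn3, Syt5, Stx1a and Syn2 lower; Snap23 and Syt17 are named after their values were seen. The smallest adjusted p among them was 0.162 (Syt2, edgeR). The groups did not overlap for 13 of 62 genes, 4 of them higher and 9 lower in cKO. This was a larger share than the 13.7% of all genes.

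Without WT 1 the count at an unadjusted p under 0.05 was 0 of 62 (3.34% of all genes), no adjusted p was below 0.9998 (edgeR; 0.00599% of all genes passed), and 7 genes (11.3%) did not overlap, against 11.9% of all. With both libraries left out, 0 passed after adjustment (0.00604% of all genes) and 4 were under that threshold (6.45%; 6.24% of all): Syt2, Rims3 and Vamp1 were higher and Sv2b lower. The groups then did not overlap for 15 genes (24.2%), against 20.7% of all. The count at an unadjusted p under 0.05 thus ran from 0 to 11 with the choice of 1 library, and no release gene passed after adjustment in these 3 fits. With the replicate number as a block, 2 of 16308 genes passed after adjustment, neither a release gene, and 4 of 62 were under the unadjusted threshold (7.52% of all genes were). These 4 were Stx1a (-0.38), Sv2c (0.49), Vamp7 (0.24) and Snap29 (0.28), the last pair named after their values were seen. Vamp3, Syt5, Syt12 and Syt16 were then above that threshold.

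Ratios of related genes within a library do not depend on its scaling. Of 7 pairs compared by exact two-sided permutation tests over 35 splits, where the smallest p possible is 0.0571, no exact p fell under 0.05, as the design cannot reach it, and 6 pairs are given here. Their exact p-values ran from 0.171 to 0.629, and from 0.560 to 0.629 after Benjamini-Hochberg adjustment. The log2 ratio of Sv2b over Sv2a was 0.68, 0.68 and 0.80 in WT and 0.48, 0.39, 0.75 and 0.46 in cKO, a difference of -0.20 in which only cKO 3 reached the WT range. Sv2c over Sv2a differed by 0.38, Syt2 over Syt1 by 0.34 and Vamp1 over Vamp2 by 0.19; Cplx1 over Cplx2 differed by 0.09 and Syn2 over Syn1 by -0.04. The groups overlapped in all 6 pairs. Cplx1 over Cplx2 was nearly constant in WT (SD 0.01) and more spread in cKO (SD 0.15).

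**Figure D5:**
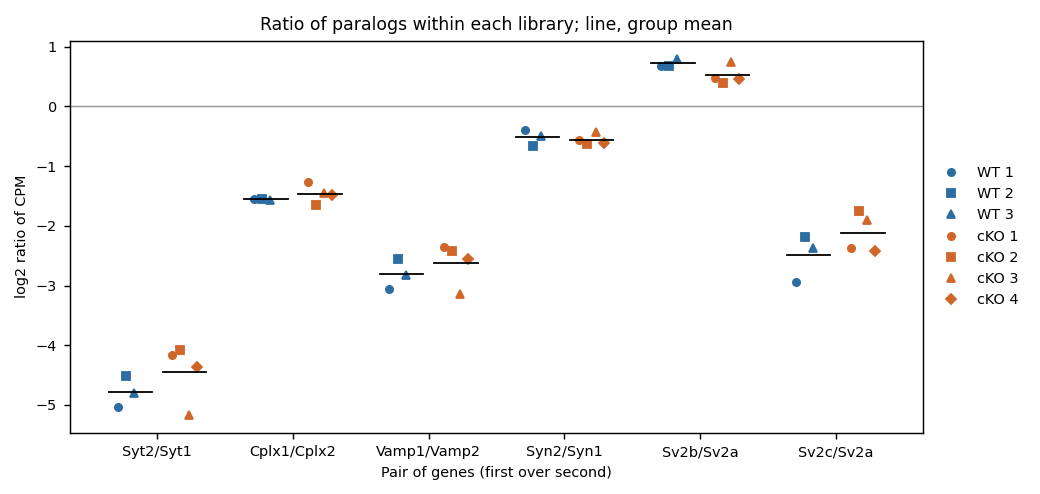
Each point is the log2 ratio of the CPM of 2 related genes in 1 library, and lines give the group means. The groups overlap in all 6 pairs, and cKO 3 is the lowest cKO point for Syt2/Syt1 and Vamp1/Vamp2.

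Other genes of the release cycle were read from lists of active zone, SNARE chaperone, vesicle membrane, endocytosis and calcium channel genes. All 50 were tested and 0 passed after adjustment; 5 of them had an unadjusted p under 0.05, against 7.14% of all genes tested, and the median log2 fold change of the 50 was -0.03. Lower in cKO were the active zone scaffold Bsn (-0.22 ± 0.09), the calcium sensor Doc2a (-0.37 ± 0.16) and the vesicle protein Syp (-0.27 ± 0.11). Higher were the priming factor Unc13c (0.47 ± 0.21) and the clathrin adaptor Picalm (0.20 ± 0.08). Syp had 779, 568 and 657 CPM in WT and 617, 542, 544 and 519 in cKO, with WT 1 highest. Unc13c had 53.9, 58.0 and 51.7 CPM in WT and 55.5, 117, 60.0 and 69.7 in cKO, with cKO 2 far above the rest. The most abundant gene of each other list by CPM was Nsf (-0.04 ± 0.10), which takes SNARE complexes apart, the proton pump subunit Atp6v1b2 (-0.08 ± 0.10), the vesicle fission GTPase Dnm1 (-0.16 ± 0.08) and the calcium channel Cacna1e (-0.04 ± 0.08).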

How the data were processed

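RNA of 7 motor cortex libraries was measured. Per the labels' protocols, fragmented mRNA was reverse transcribed from random primers; no strand marking is described. The authors deposited raw gene counts and FPKM for the same genes; featureCounts 1.5.0-p3, DESeq2 1.20.0 and the mm10 build were used per the submitters' processing notes. For the aligner, the annotation release and multiply mapped reads, the settings were not given in the sources used here. The deposited FPKM imply library totals of 0.968 to 1.02 times the summed counts.

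Counts were fitted with edgeR 4.0.16 in R 4.3.3 (TMM, filterByExpr, quasi-likelihood test of genotype, Benjamini-Hochberg over 16308 genes). CPM are from edgeR, SE is the log2 fold change over the root of F, and intervals are 95%. No pair of libraries agreed within sampling noise (chi-square per degree of freedom 4.42 to 23.1). Ratios were tested by exact permutation (SciPy 1.17.1), and figures drawn with matplotlib 3.10.9. Alternatives were other scalings and filters, DESeq2 1.42.0, limma 3.58.1 on counts and on log2(FPKM + 1) or log2(FPKM + 0.1), a Y-linked covariate, protein-coding genes alone, a replicate block and libraries left out. Scripts were tested on simulated data.

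Named are genes at an unadjusted p under 0.05, the 5 smallest p-values each way, a fixed set of canonical genes and the highest gene of each role. The genes, lists and rules were chosen with earlier results of these data known. Same-numbered WT and cKO libraries correlated at 0.135, 0.122 and 0.166 in their deviations from group means, each above 0.1. The replicate block takes these numbers as pairs, and the main fit has no block. Pairs with different numbers also passed 0.1: WT 2 with cKO 4 at 0.234, WT 3 with cKO 2 at 0.131 and WT 1 with cKO 3 at 0.107. The limit thus does not part same-numbered pairs from others, and no label says what a number means. Gene starts and ends equalled GENCODE M21 for 63 of 66 genes, and 16 share exonic bases with another gene. Results for some of the genes are not reported here.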

Additional observations from a re-analysis of the deposited data

Results flagged for a closer look

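In groups of 4 to 10 samples, a library was picked out where its gap to the nearest other, over the group's range, passed Dixon's 95% limit; chance gives about 1 in 20 groups. Of 69 groups of cKO values tested, 9 were picked out, 7 of them in cKO 3. Sv2b stood at 770 CPM there, against 579 to 591 in the other cKO libraries, and Snap91 at 535 CPM against 402 to 422. Rims3 was low at 224 CPM against 378 to 393, and Syt13 at 219 CPM against 269 to 275. Stxbp5 stood at 205 CPM against 170.3 to 174, Rab3b at 54.5 CPM against 36.2 to 37.8, and Syt5 at 113 CPM against 105.6 to 106.5. In cKO 4, Stx17 was low at 27.1 CPM against 30.4 to 30.6, and in cKO 1, Stx8 was high at 17.3 CPM against 14.0 to 14.4.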

How the results depend on the processing

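The median log2 fold change of the release genes was -0.02 in the main fit. It ran from -0.05 to 0.0050 over the alternatives, above 0 only with the replicate block. The highest gene of each role by FPKM stayed so with any 1 library left out. Of 525 values of 25 named genes, 506 kept direction and the side of the adjusted threshold, 18 reversed and 1 was called. No named gene passed that threshold in the main fit, so this count does not show how the unadjusted results held. Stx1a without WT 1, Vamp3 in DESeq2 and Sv2c in limma on counts are among the 506. Each of them rose above the unadjusted threshold. With no filter on low counts, 198 of all genes and 1 release gene were called (Sv2c, adjusted p = 0.0143, edgeR). DESeq2 called 3 of all genes, limma on log2(FPKM + 1) with no filter 3, the replicate block 2, and the fit without WT 1 and cKO 3 together 1. Leaving out 1 library gave 0 to 3 called genes, 0 called release genes, and 0 (without WT 1) to 11 (without cKO 3) at an unadjusted p under 0.05; without WT 3 or without cKO 2 there were 3. The cause of these shifts was not tested.

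Reversals among the named genes were of values near 0; unnamed genes also reversed, among them Syt10 (0.43 to -0.16) and Rab3c without cKO 3, and Vamp7 (0.19 to -0.031) without WT 1 and cKO 3 together. With the replicate block, the log2 fold change was 0.0065 for Snap91, 0.025 for Stx12, 0.0048 for Sv2a and 0.017 for Syt1; the block changed no release gene's call. Without WT 1 and cKO 3 together it was -0.024 for Snap25 and 0.038 for Sv2a. With 1 library left out it ran from -0.0034 to 0.11 for Snap25, -0.14 to 0.024 for Snap91, -0.12 to 0.036 for Stx12, -0.13 to 0.057 for Sv2a, -0.11 to 0.039 for Syt1 and -0.11 to 0.00064 for Vamp2. The ratio Syn2 over Syn1 ran from -0.12 to 0.022 (reversed without WT 1). By CPM in place of FPKM, the highest gene stayed so in 8 of 11 roles, with Sv2b, Rab3c and Stx7 leading theirs. Groups of 3 and 4 libraries bound the fold change within 1.5-fold for 37 of 39 genes at 10 FPKM or more and for 53 of 62 in all, so larger differences of the scarce genes could go undetected.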
